A study of Mus musculus with 6 samples.

Results

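The cytosolic sulfotransferase genes Sult1c2, Sult1a1, Sult1b1, Sult1d1 and Sult2b1, together with Papss2, which encodes a synthase of their sulfate donor, were described in mouse colon epithelium with and without dietary ursodeoxycholic acid (UDCA). The 6 genes were chosen from earlier results of the same arrays, in which Sult1c2 was lower under UDCA, and their probe sets were taken by gene symbol. They are 6 of 12393 genes with a symbol of their own on the array and are measured by 10 probe sets. Of these, 9 lie in the brighter 50% of all probe sets, with at least 1 probe set for each of the 6 genes. Because the choice used the UDCA and control values, the difference between the diets is given for these genes as a description, with no test.

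The control group was 6 mice on a standard diet and the UDCA group was 6 mice on a diet with 0.4% UDCA, a hydrophilic bile acid. RNA of 2 animals was combined per pool and each pool was measured on 1 Affymetrix array, which gives 3 control pools and 3 UDCA pools, named 1+2, 3+4 and 5+6 after the animals in them. The design text also speaks of 6 samples per group while naming 3. The labels carry the tag IEC-6, a rat intestinal line, next to colon epithelium of mice, and the arrays are taken as the mouse tissue. Strain, sex, age and the length of feeding were not given in the sources used here.

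Cytosolic sulfotransferases move a sulfonate group from the donor 3'-phosphoadenosine-5'-phosphosulfate (PAPS) to small hydrophobic molecules, among them phenols, hormones, sterols and drugs, which become more water-soluble and are more easily exported. PAPS is made from sulfate and ATP by the bifunctional synthases Papss1 and Papss2. The SULT1 family acts mainly on phenols and amines, and the SULT2 family on hydroxysteroids. Sulfation of bile acids in mouse liver is the work of the Sult2a enzymes, and intestinal epithelium is a further site of sulfation of compounds taken up from the lumen.

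In the RefSeq annotation of GRCm38.p6, Sult1c2 lies beside Sult1c1 on chromosome 17, and Sult1b1, Sult1d1 and Sult1e1 follow each other on chromosome 5. Sult1a1 and Sult2b1 lie on chromosome 7 and Papss2 on chromosome 19, none of them next to another sulfotransferase gene. RefSeq promoter windows of 300 bases, from 250 before to 50 after an annotated start, were found for all 6 genes, 9 windows in all. The windows below are those of Sult1c2 and Sult1a1, the members with the lowest values under UDCA relative to control, and of the neighbours Sult1b1 and Sult1d1. All are on the minus strand of GRCm38.p6, printed 5′ to 3′ in gene direction, with capitals for the letters of 3 motifs searched on both strands. These were AGGTCA, the core element of nuclear receptors, CAAAGTCCA, a core of sites of the hepatocyte nuclear factor HNF4, and TATAAA, the TATA box.
Sult1c2, chr17:53845909-53846208: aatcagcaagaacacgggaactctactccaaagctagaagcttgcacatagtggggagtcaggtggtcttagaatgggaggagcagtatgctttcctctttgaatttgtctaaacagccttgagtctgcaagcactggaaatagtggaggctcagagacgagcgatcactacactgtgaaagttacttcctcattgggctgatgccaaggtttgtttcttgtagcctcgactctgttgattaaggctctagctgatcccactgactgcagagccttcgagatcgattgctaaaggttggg
Sult1a1, chr7:126676369-126676668: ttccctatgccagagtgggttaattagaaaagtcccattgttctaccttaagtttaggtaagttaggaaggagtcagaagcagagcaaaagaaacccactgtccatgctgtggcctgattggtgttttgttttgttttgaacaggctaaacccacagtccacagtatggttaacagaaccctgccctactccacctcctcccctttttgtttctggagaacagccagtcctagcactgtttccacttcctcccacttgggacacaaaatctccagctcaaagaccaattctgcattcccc
Sult1b1, chr5:87538146-87538445: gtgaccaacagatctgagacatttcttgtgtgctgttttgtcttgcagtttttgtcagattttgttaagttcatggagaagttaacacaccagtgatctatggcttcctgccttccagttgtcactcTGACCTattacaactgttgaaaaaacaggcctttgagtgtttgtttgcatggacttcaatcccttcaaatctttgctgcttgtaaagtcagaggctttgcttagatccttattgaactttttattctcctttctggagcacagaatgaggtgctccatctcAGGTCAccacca
Sult1b1, chr5:87536173-87536472: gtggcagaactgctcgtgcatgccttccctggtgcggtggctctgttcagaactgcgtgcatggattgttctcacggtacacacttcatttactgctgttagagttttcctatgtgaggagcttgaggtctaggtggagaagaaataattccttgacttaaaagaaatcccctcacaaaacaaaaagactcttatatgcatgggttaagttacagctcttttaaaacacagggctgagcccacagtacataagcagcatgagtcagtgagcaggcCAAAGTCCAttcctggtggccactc
Sult1d1, chr5:87568957-87569256: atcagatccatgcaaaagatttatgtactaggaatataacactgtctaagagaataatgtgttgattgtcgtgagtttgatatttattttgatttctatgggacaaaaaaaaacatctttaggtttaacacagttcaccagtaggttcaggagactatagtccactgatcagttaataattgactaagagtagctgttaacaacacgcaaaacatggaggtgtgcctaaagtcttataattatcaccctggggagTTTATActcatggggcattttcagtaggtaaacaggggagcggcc
The windows of Sult1c2 and Sult1a1 held none of the 3 motifs. The upstream Sult1b1 window held AGGTCA at 2 places, the downstream Sult1b1 window held CAAAGTCCA at 1 place and the Sult1d1 window held TATAAA at 1 place, in reverse as TTTATA. The AGGTCA matches were 1 in each orientation, the first of them read as TGACCT. No matches overlapped. Among all 32851 windows of the table, 16.3% held AGGTCA, 0.475% held CAAAGTCCA and 13.6% held TATAAA. Among the 9 windows of these genes 2, 1 and 1 did. The GC content of the 5 printed windows was 47.7%, 46.3%, 41.3%, 46.7% and 37.0% in the order shown, against a median of 52.7% over all windows.

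The deposited signals are intensities on a linear scale. Array medians ran from 67.4 to 84.0 in the control pools and from 68.2 to 87.3 in the UDCA pools, so the arrays did not share a median. Whether they had been scaled by another measure was not given in the sources used here. Signals are therefore given as deposited, and differences as log2(signal + 16) after quantile normalization, which gives all 6 arrays the same distribution. The added 16 understates changes of dim genes. Over the 11313 brighter probe sets the median log2 difference, UDCA minus control, was 0.0066 on this scale and 0.08 as deposited. All 13 colon epithelium markers on the array lay above the filter. None of 11 lymphocyte, 10 fibroblast, 8 smooth muscle and 8 endothelial markers did, with signals of at most 78.4 on any array, and of 13 myeloid markers only Cd14 did. In RNA of a bulk tissue, fewer cells of a type and less RNA per cell cannot be told apart.

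Among the enzymes for phenols, Sult1c2 was lower in every UDCA pool than in any control pool. Its signals were 271.2, 501.6 and 344.0 in control pools 1+2, 3+4 and 5+6, and 139.9, 213.6 and 209.5 in the UDCA pools of the same numbers. The highest UDCA value, in pool 3+4, lay below the lowest control value, in pool 1+2, and the control pools differed among themselves by more than the UDCA pools did. The group means were 372 ± 118 and 188 ± 41.4 (SD, n = 3), a log2 difference of -0.96 (SE 0.22), or 1.95-fold lower. As deposited it was -0.91 and after scaling to a common median -0.92. Leaving out 1 array at a time moved it between -0.74, without control pool 3+4, and -1.11, without UDCA pool 5+6. Sult1c2 belongs to the 1C subfamily, whose rodent enzymes are known to sulfonate phenols and N-hydroxy arylamines.

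Sult1a1, the major phenol sulfotransferase of the family, was lower in UDCA pools 1+2 and 3+4 and close to the controls in pool 5+6. The control signals were 2201.1, 2768.2 and 2770.8, and the UDCA signals were 1483.2, 1715.5 and 2344.7. As deposited, UDCA pool 5+6 was above control pool 1+2, so that the groups overlapped. After quantile normalization the same pool, at a log2 value of 11.30, lay just below the lowest control value of 11.37, in pool 5+6, and the groups were separate. The means were 2580 ± 328 and 1848 ± 446 (SD, n = 3), with a log2 difference of -0.63 (SE 0.19) after quantile normalization and -0.50 as deposited. Without UDCA pool 5+6 the difference was -0.89, the widest value on leaving out 1 array, and without UDCA pool 3+4 it was -0.50. The spread of the log2 values was 0.06 (SD) over the control pools and 0.45 over the UDCA pools.

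**Figure D1:**
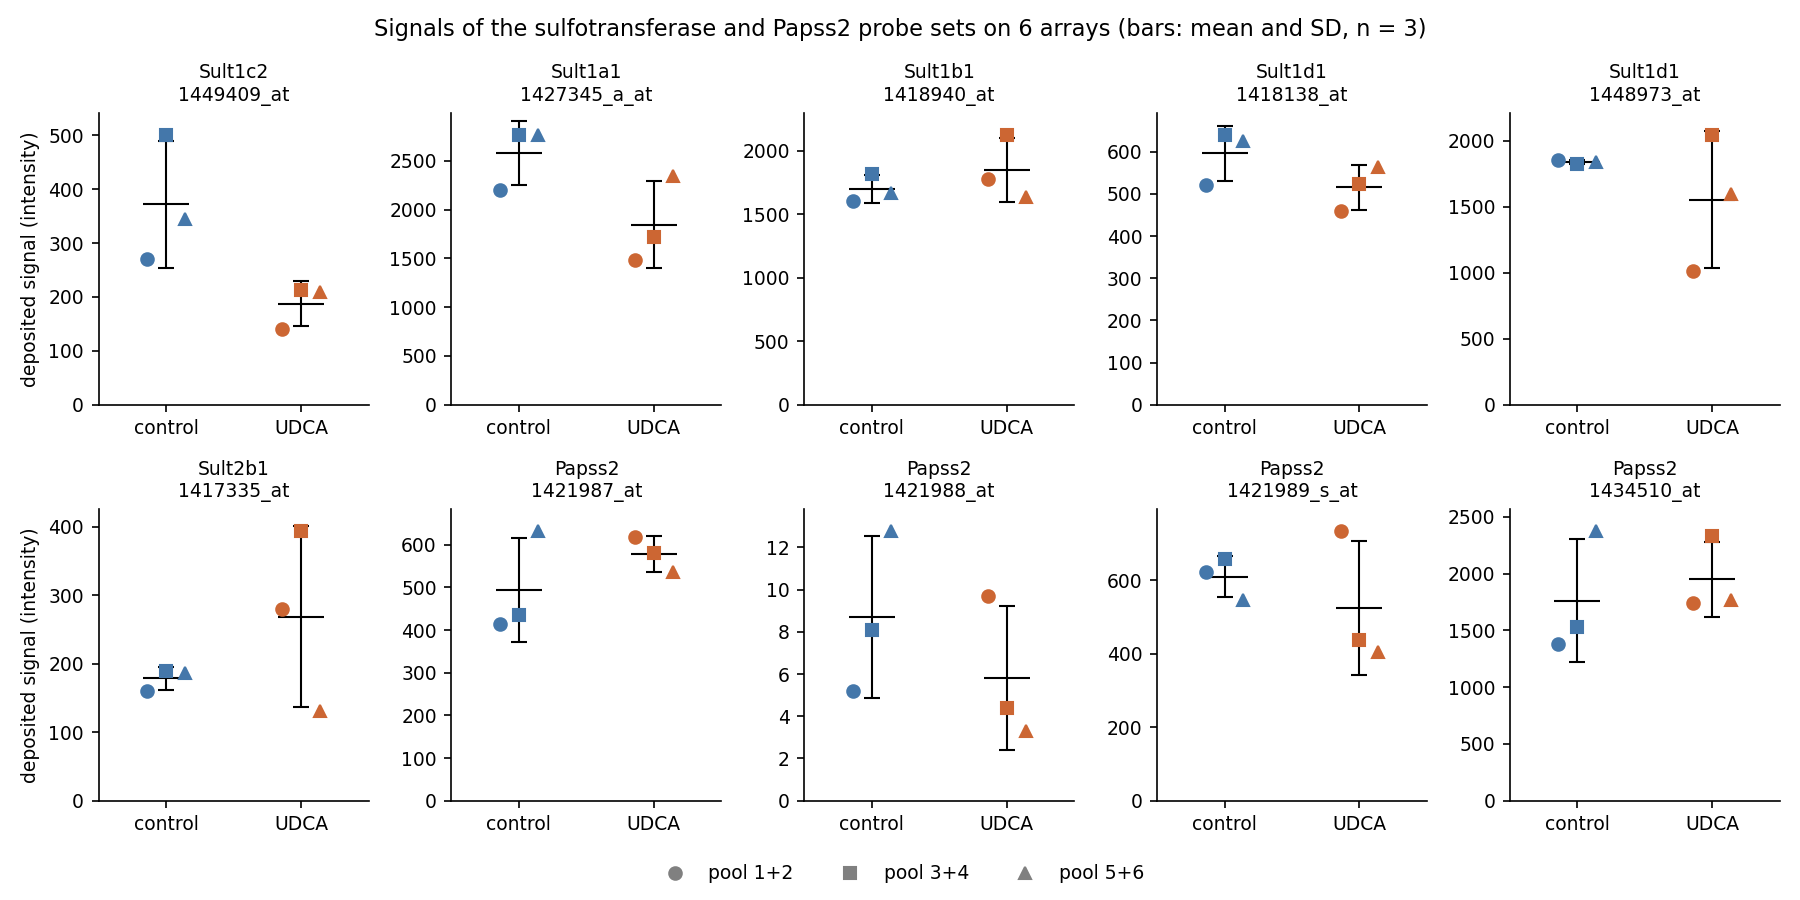
Deposited signal (linear intensity, vertical axes from 0) of the 10 probe sets of Sult1c2, Sult1a1, Sult1b1, Sult1d1, Sult2b1 and Papss2 in 3 control and 3 UDCA pools. Points are single arrays, horizontal bars are means and whiskers are SD (n = 3). Sult1c2 shows separate groups, from 139.9 to 213.6 against 271.2 to 501.6, and Papss2 probe set 1421988_at stays at or below 12.8.

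Sult1b1, an intestinal enzyme for small phenols and thyroid hormones, showed no direction that held across scales. Its signals were 1603.3, 1818.5 and 1669.5 in control pools and 1780.7, 2127.7 and 1636.7 in UDCA pools. The groups overlapped, and the order of the 6 pools followed in part the overall level of the arrays, with UDCA pool 3+4 highest in both. The means were 1697 ± 110 and 1848 ± 252 (SD, n = 3). The log2 difference was 0.00012 (SE 0.10) after quantile normalization, 0.12 as deposited and 0.11 at a common median. Its sign turned in 3 of 11 alternatives, to -0.10 at most, without control pool 5+6.

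Sult1d1, the neighbour of Sult1b1 and in rodents an enzyme for catecholamines, is measured by 2 probe sets that did not run alike in all pools. Probe set 1448973_at was nearly level in the control pools, at 1855.7, 1826.7 and 1839.1, and varied among the UDCA pools, at 1012.0, 2046.7 and 1595.9. Probe set 1418138_at gave 522.2, 640.7 and 625.7 in control pools and 458.4, 524.6 and 563.4 in UDCA pools. Both were lowest in UDCA pool 1+2 as deposited, whereas UDCA pool 3+4 was the highest array for 1448973_at and the third lowest for 1418138_at. The log2 differences were -0.42 (SE 0.21) and -0.30 (SE 0.13), with overlapping groups for both. Leaving out 1 array moved the second between -0.43, without UDCA pool 5+6, and -0.22, without UDCA pool 3+4. Their means were 1840 ± 14.6 and 1552 ± 519 for 1448973_at, and 596 ± 64.5 and 515 ± 53.1 for 1418138_at (SD, n = 3). Without UDCA pool 1+2 the difference of 1448973_at was -0.15, and without UDCA pool 3+4 it was -0.55. Over the 6 arrays, the centred log2 values of both probe sets differed by a root mean square of 0.27.

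Sult2b1, which sulfonates cholesterol and other 3β-hydroxysteroids, was higher in UDCA pools 1+2 and 3+4 and lower in pool 5+6 than in any control pool. The signals were 159.5, 189.8 and 186.6 in control pools and 280.4, 394.5 and 130.9 in UDCA pools. The control pools lay close together while the UDCA pools bracketed them from both sides. The means were 179 ± 16.6 and 269 ± 132 (SD, n = 3), with a log2 difference of 0.38 (SE 0.26) and overlapping groups. Without UDCA pool 5+6 the difference was 0.72, and without UDCA pool 3+4 it was 0.14.

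UDCA pool 5+6 was also the lowest array for Slc26a2, a sulfate transporter gene looked at after its values had been seen, and for 5 of the 10 surface colonocyte markers on the array, Aqp8, Slc20a1, Slc26a3, Car4 and Ceacam1. Slc26a2 probe set 1427195_at gave 2970.7, 3712.2 and 3076.2 in control pools and 4372.9, 4004.8 and 1727.1 in UDCA pools, and its other probe set, 1421145_at, gave 628.9, 787.7 and 617.9 against 1018.4, 825.1 and 337.4. The water channel gene Aqp8 gave 5343.4, 6062.4 and 649.3 in the UDCA pools against 2103.9 to 2979.7 in the control pools. Other markers of the list ran differently. Guca2a was highest in UDCA pool 5+6, at 6901.5 against 4270.8 to 6797.8 in the control pools. Tmigd1, Emp1, Krt20 and Mall were lowest in control pool 1+2, Tmigd1 at 27.5 there against 325.2 to 1319.6 in the UDCA pools, and Emp1 at 183.8 against 1185.3 to 2765.8. Over all 10 markers, which lay above the filter and were at 0 on no array, the summed signal was 25729 to 32572 in the control pools and 33200, 41547 and 23796 in UDCA pools 1+2, 3+4 and 5+6. Sult2b1, Slc26a2, Aqp8 and the summed list thus shared UDCA pool 5+6 as their lowest array. This was not particular to the surface list. The summed crypt, lymphocyte and myeloid markers and the summed regulators of sulfotransferase genes were also lowest there. The sums of the remaining lists were lowest in other pools. These sums are of deposited signals. The median of UDCA pool 5+6 was 68.2, and that of control pool 1+2 was lower, at 67.4. After quantile normalization Sult2b1, Slc26a2 and Aqp8 were also lowest in UDCA pool 5+6, at log2 values of 7.32, 10.87 and 9.48. The part of the array level in these values was not tested. The part of the surface colonocyte markers in the Sult2b1 and Slc26a2 values was not tested. Sult1c2 and Sult1a1 did not share UDCA pool 5+6 as their lowest array, which was UDCA pool 1+2. Of the crypt base and proliferation markers, 11 of 11 on the array lay above the filter and were at 0 on no array, with 7 log2 differences below 0, 4 above and a median of -0.08. Groups were separate as lower for 2 of them, where 8.34% of all probe sets were. The stem cell gene Lgr5 gave 126.2, 146.7 and 145.0 in control pools and 99.6, 95.6 and 104.5 in UDCA pools, and the proliferation gene Mki67 gave 1562.1, 1327.7 and 1748.3 against 1167.7, 1023.0 and 1214.5. Lgr5 was thus lower in all UDCA pools on all 3 scales, and Mki67 on all but the common median. Neither passed in limma (adjusted p = 0.314 and 0.303, log2 differences -0.44 and -0.56). The 4 markers above 0 were Ascl2, Mcm5, Myc and Axin2, at 0.41, 0.11, 0.06 and 0.01, with overlapping groups. The summed signal of the 11 markers was 6423.1 to 8082.7 in the control pools and 6233.5 to 7085.0 in the UDCA pools, with overlap. The part of the crypt markers in the Sult1c2 and Sult1a1 values was not tested.

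**Figure D2:**
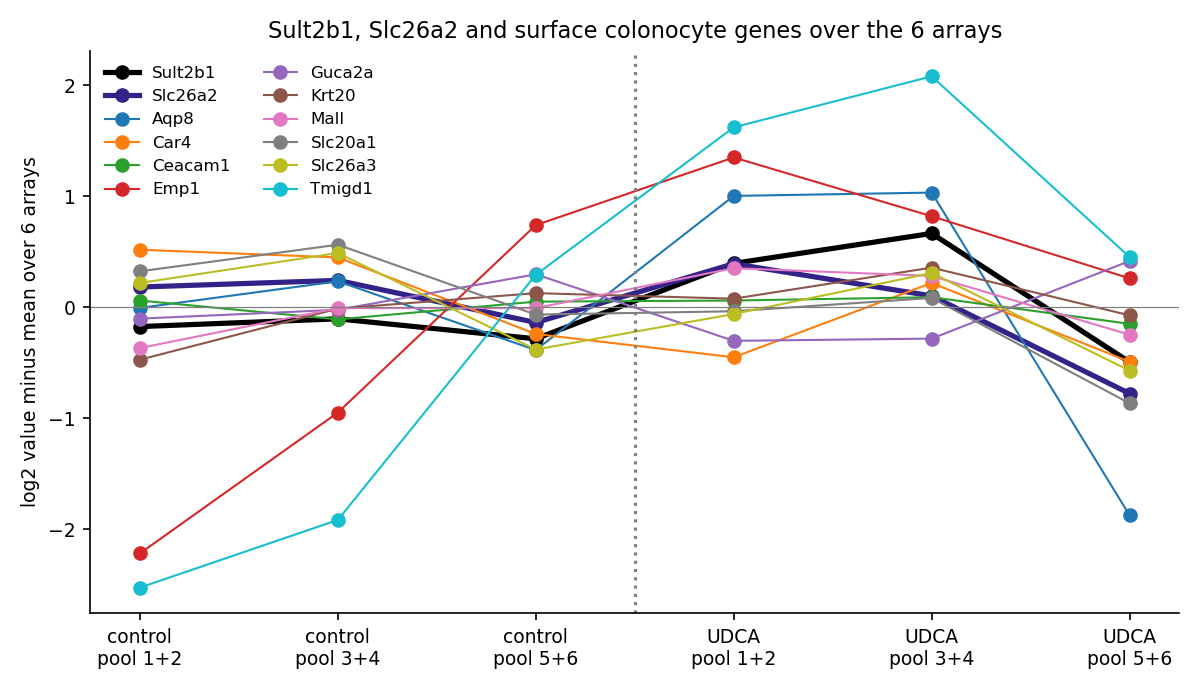
Quantile normalized log2 values, each minus its own mean over the 6 arrays (vertical axis), of Sult2b1 and the sulfate transporter gene Slc26a2 (thick lines) and of all 10 surface colonocyte markers above the filter (thin lines) in each pool (horizontal axis). Sult2b1, Slc26a2 and 5 of the markers are at their lowest in UDCA pool 5+6, Guca2a is at its highest there, and Tmigd1, Emp1, Krt20 and Mall are at their lowest in control pool 1+2.

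Papss2, a synthase of the donor PAPS, is measured by 4 probe sets, which went different ways. The brightest, 1434510_at, gave 1377.4, 1527.9 and 2378.9 in control pools and 1744.4, 2330.9 and 1770.9 in UDCA pools. Probe set 1421987_at gave 413.6, 434.5 and 633.2 against 618.8, 579.7 and 535.3. For both, control pool 5+6 was the highest array as deposited and control pool 1+2 the lowest, so the groups overlapped. Probe set 1421989_s_at, whose suffix marks probes shared with other transcripts, ran the other way, with 623.5, 656.9 and 547.7 in control pools and 735.3, 438.1 and 403.7 in UDCA pools. The fourth, 1421988_at, was at 3.3 to 12.8 on all arrays and below the filter. The means of 1434510_at were 1761 ± 540 and 1949 ± 331, those of 1421987_at 494 ± 121 and 578 ± 41.8, and those of 1421989_s_at 609 ± 56.0 and 526 ± 182 (SD, n = 3). Their log2 differences were 0.04 (SE 0.14), 0.15 (SE 0.13) and -0.35 (SE 0.24). The centred log2 values of 1434510_at and 1421987_at differed by a root mean square of 0.17 over the 6 arrays, while 1421989_s_at differed from them by 0.51 and 0.42. The sign of 1434510_at turned when control pool 1+2 was left out, likewise for control pool 3+4 and for UDCA pool 3+4, to -0.07 at most. Leaving out 1 array moved 1421987_at between 0.07 and 0.26, without control pools 3+4 and 5+6, and 1421989_s_at between -0.63 and -0.16, without UDCA pools 1+2 and 3+4.

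**Figure D3:**
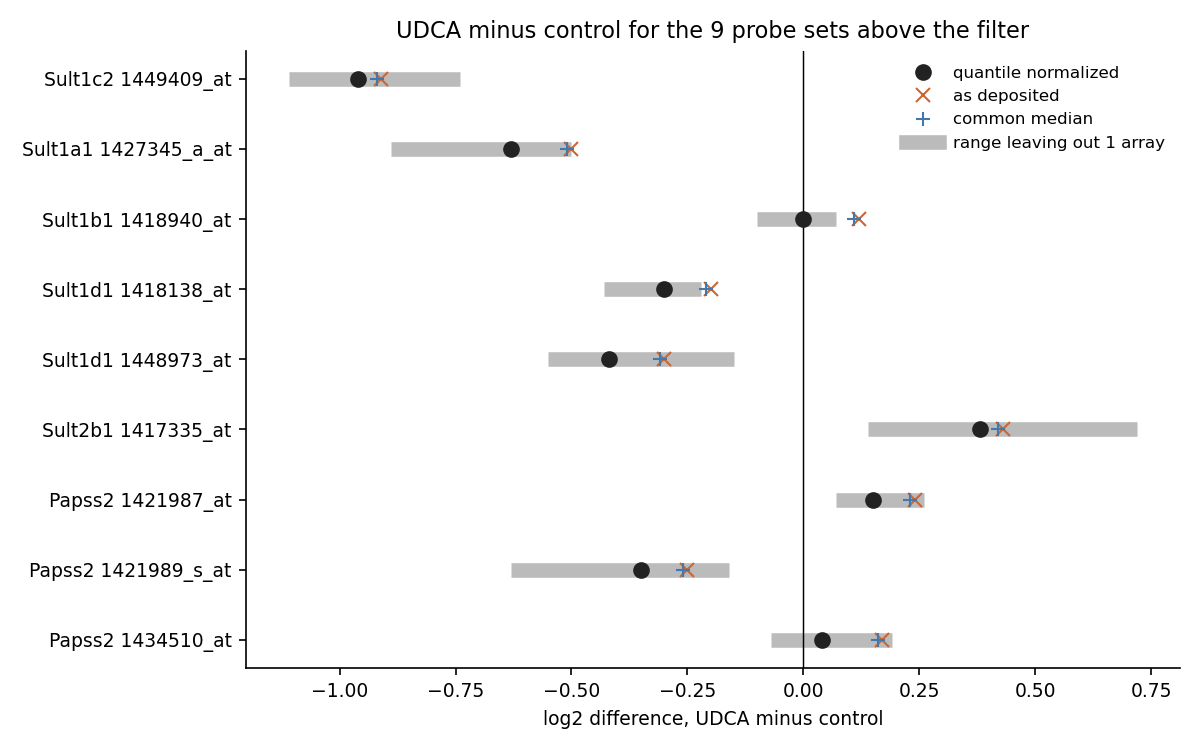
Log2 difference, UDCA minus control (horizontal axis), of the 9 probe sets above the filter under 3 scalings of the arrays, with a grey bar from the lowest to the highest value on leaving out 1 array under quantile normalization. Sult1c2 stays between -1.11 and -0.74, while the bars of Sult1b1 and of Papss2 1434510_at reach both sides of 0.

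Seen together, 5 of the 9 probe sets above the filter had a negative log2 difference, and their median was -0.30. The groups were separate for 2 of 9, Sult1c2 and Sult1a1, both lower, where 8.34% of all probe sets above the filter had separate groups in that direction. None of the 9 was separate as higher, where 10.9% of all probe sets were. Lower and higher together, the groups were separate for 19.2% of probe sets on this scale, 7.7% as deposited and 23.3% at a common median. As deposited, and at a common median, they were separate for Sult1c2 alone, where the share that was separate as lower was 3.98% and 4.85%, and as higher 3.72% and 18.4%. Nothing is read from these counts, since the genes were chosen on the same contrast.

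The genes nearest to Sult1c2 in their course over the 6 arrays were Ptpn13, Samhd1, Frat2, Tbcel and Eppk1, out of 6673 genes compared. Nearness is the root mean square difference between log2 values centred on each probe set's mean, and was 0.177 for Ptpn13, a tyrosine phosphatase gene, and 0.201 for Samhd1, which encodes a nucleotide hydrolase. It was 0.237, 0.241 and 0.257 for the other genes in the order given, where the Sult1c2 values themselves had a root mean square of 0.56. Ptpn13 had signals of 118.6, 150.3 and 107.2 in control pools and 47.7, 80.7 and 71.1 in UDCA pools. Like Sult1c2 it was highest in control pool 3+4 and lowest in UDCA pool 1+2. For Sult1a1 the nearest were Psd3 and Cyp39a1, an oxysterol hydroxylase gene of bile acid synthesis, at 0.030 and 0.073. Cyp39a1 had 187.8, 213.0 and 213.0 in control pools and 98.6, 136.1 and 174.5 in UDCA pools. They were Rtn4 and Prr14 for Sult1b1 (0.025 and 0.028), Nudt4 and Ctse for Sult1d1 (0.100 and 0.101), Myo19 and Phlda3 for Sult2b1 (0.091 and 0.115), and Lrrk1 and Cmtr1 for Papss2 (0.048 and 0.055). The values describe these 6 arrays and were not tested.

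**Figure D4:**
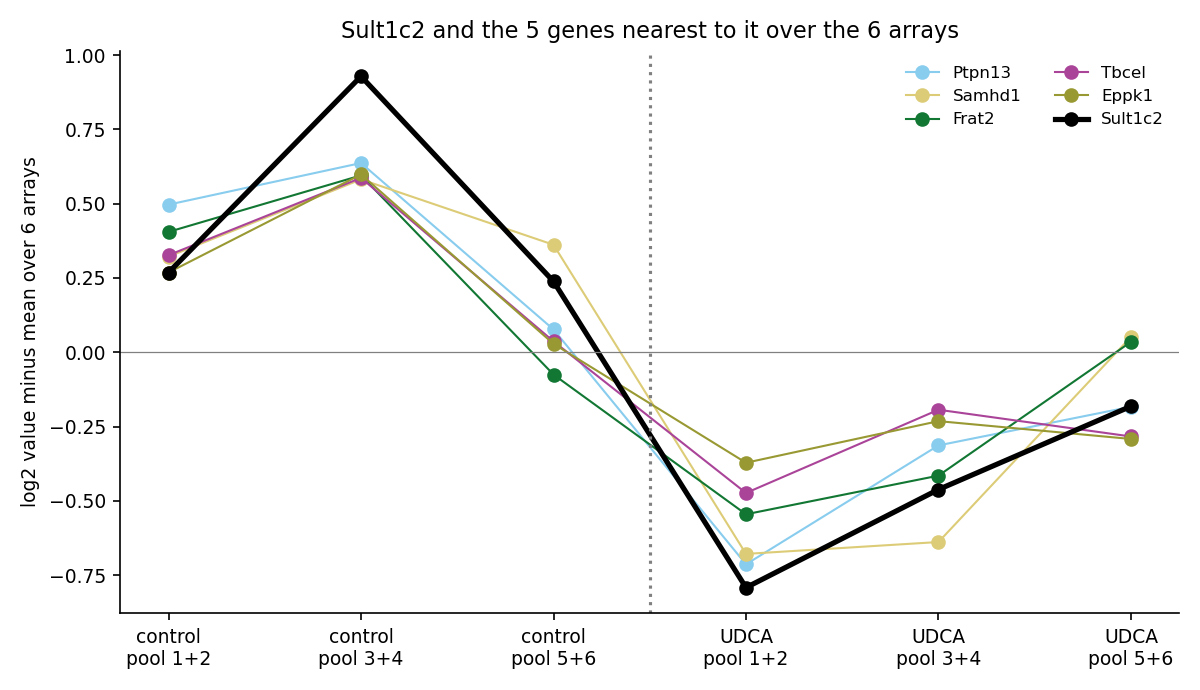
Quantile normalized log2 values minus the mean over the 6 arrays (vertical axis) in each pool (horizontal axis) for Sult1c2 (black) and the 5 genes nearest to it. Sult1c2 spans the widest range, and all 6 lines are at their highest in control pool 3+4.

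Of the other cytosolic sulfotransferase genes, none was measured above the filter. The list held 16 genes, of which Sult1c1, Sult1e1, Sult2a2, Sult3a1, Sult4a1 and Sult5a1 are named on the array. Their signals reached at most 36.7 on any array, for Sult5a1, and the median of their mean signals was 4.57. Sult1c1, the neighbour of Sult1c2, lay between 0.8 and 13.5, and Sult1e1, the estrogen sulfotransferase gene beside Sult1d1, between 0.7 and 6.7. Sult2a2, of the family that sulfonates bile acids in liver, lay between 1.2 and 10.5. As deposited its UDCA pools, at 8.9, 8.7 and 10.5, lay above its control pools, at 1.2, 1.2 and 8.5. On the other scales its groups overlapped. The groups of Sult1e1 were separate as higher on all 3 scales, where 8.34% of all 22626 probe sets were after quantile normalization. All these signals lay far below the filter.

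The other genes of sulfate use were listed by their roles and tested with limma, a linear model with moderated variances, at a Benjamini-Hochberg adjusted p of 0.05, which 0.00884% of the 11313 probe sets passed. In the supply of sulfate and PAPS no gene passed, in either direction, among 11 above the filter of 14 on the array. At an unadjusted p under 0.05 there were 3, where 13.7% of all probe sets were. Suox, sulfite oxidase, which makes sulfate from sulfite, had signals of 81.3, 83.8 and 154.2 in control pools and 147.2, 209.7 and 165.6 in UDCA pools. After quantile normalization all UDCA pools lay above the controls, while as deposited control pool 5+6 lay within the UDCA range. Its log2 difference was 0.66 (SE 0.18; limma adjusted p = 0.284). Cdo1, cysteine dioxygenase, had 299.8, 334.7 and 379.5 against 299.8, 274.0 and 283.4, a log2 difference of -0.30 (SE 0.12; limma adjusted p = 0.345). Its groups were separate after quantile normalization and met at 299.8 as deposited. Papss1, the other PAPS synthase, had -0.25 (SE 0.11; limma adjusted p = 0.359), with means of 1281 ± 140 and 1176 ± 116 (SD, n = 3), and Ethe1, a persulfide dioxygenase of sulfide breakdown, had 0.19 (SE 0.10; limma adjusted p = 0.418). The list's median log2 difference was -0.03, with 5 genes above 0 and 6 below.

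Sulfotransferases of the Golgi, which modify glycans, lipids and tyrosines with the same donor, and sulfatases were mostly dim. Of 24 Golgi sulfotransferase genes on the array 7 lay above the filter, and of 8 sulfatase genes 3 did. Of the genes above the filter in either list, none passed in limma and none reached an unadjusted p under 0.05. Both lists had a median log2 difference of 0.06. Chst4, which sulfates N-acetylglucosamine on mucin-type glycans, had signals of 256.6, 271.9 and 450.3 in control pools and 424.3, 579.8 and 334.9 in UDCA pools, a log2 difference of 0.37 (SE 0.17; limma adjusted p = 0.384) with overlapping groups. Hs2st1, Tpst2 and Gal3st1, which act on heparan sulfate, protein tyrosines and galactosylceramide, had -0.10, 0.06 and 0.07. The sulfatases Galns and Arsa had -0.14 and 0.06, and Sumf1, which activates sulfatases, had 0.08. Just under the filter, and named after its values had been seen, lay Sulf2, an extracellular sulfatase gene that acts on heparan sulfate. Its signals were 11, 40.5 and 73.8 in control pools and 109.9, 163.1 and 164.5 in UDCA pools. All UDCA pools lay above all control pools on the 3 scales, and the log2 difference of 1.64 was the widest of the genes in the sulfation lists. In the limma fit with no filter, over 22626 probe sets, its SE was 0.37 and its adjusted p = 0.393. Its unadjusted p was under 0.05 in that fit. So were those of dim probe sets of Hs6st2, Tpst1 and Chst15, and that of Sult2a2 among the other cytosolic sulfotransferases. Of all 22626 probe sets, 2313 had one.

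Transcription factors known to act on sulfotransferase genes had 10 genes above the filter of 15 on the array, with 4 log2 differences above 0 and 6 below and a median of -0.06. None passed in limma, while an unadjusted p under 0.05 was found for 2 of 10, where 13.7% of all probe sets had one. Ahr, the aryl hydrocarbon receptor gene, was lower in each UDCA pool than in any control pool, with 143.7, 162.6 and 164.4 against 116.9, 132.9 and 108.9. The groups were separate on all 3 scales, and the log2 difference was -0.38 (SE 0.11; limma adjusted p = 0.293). Its other probe set, 1450695_at, lay below the filter with 29.1, 29.7 and 46.4 against 28.1, 30.3 and 30.5, which overlap. Nr1i2, the pregnane X receptor gene, had 197.6, 237.1 and 161.4 against 144.7, 167.8 and 118.0, a log2 difference of -0.47 (SE 0.18; limma adjusted p = 0.330) with overlapping groups. Its other probe set, 1425723_at, had -0.18 (SE 0.13). Vdr and Nr3c1, the vitamin D and glucocorticoid receptor genes, had -0.29 and -0.18 (limma adjusted p = 0.446 and 0.487). Over all 5 lists, 0 of 31 genes above the filter passed in limma and 5 reached an unadjusted p under 0.05, beside 13.7% of all probe sets. The groups were separate for 2 genes that were lower and 1 that was higher, beside 8.34% and 10.9% of all probe sets.

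**Figure D5:**
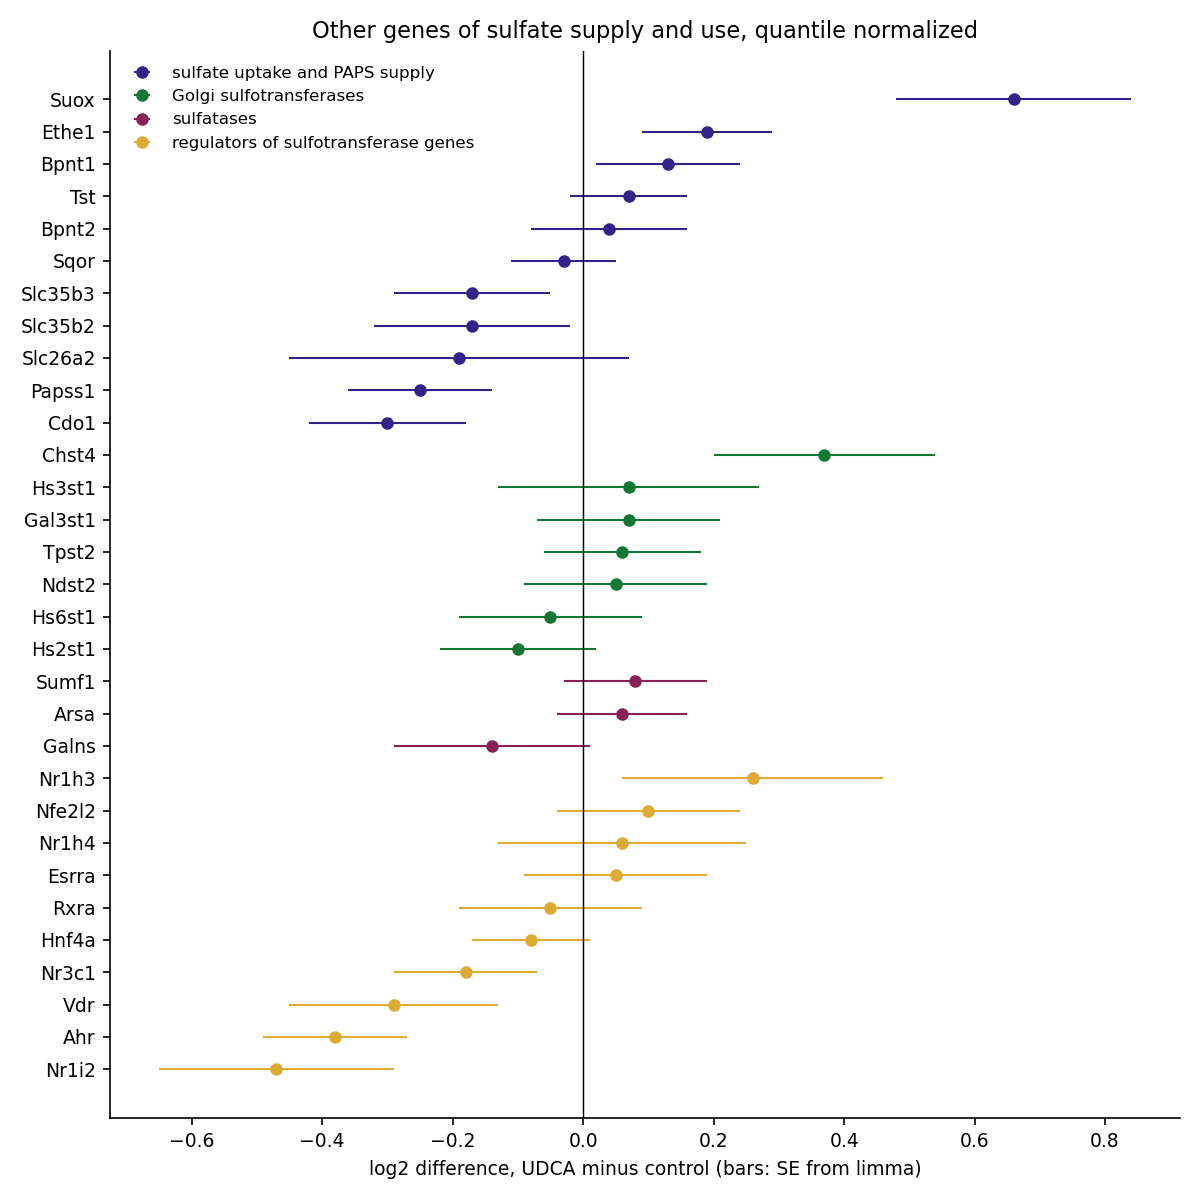
Log2 difference, UDCA minus control, with SE from limma (horizontal axis), of the 31 genes above the filter in the lists of sulfate and PAPS supply, Golgi sulfotransferases, sulfatases and regulators. Suox lies farthest to the right at 0.66 and Nr1i2 farthest to the left at -0.47, and no gene passed the adjusted threshold.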

How the data were processed

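The deposited values are signal intensities on a linear scale, 1 per probe set and array, for 22690 probe sets. GCOS made them, per the submitters' processing notes, and its version and settings were not given in the sources used here. After 64 Affymetrix controls were left out, the arrays were quantile normalized and log2(signal + 16) taken. Those in the brighter 50% over the arrays (11313 probe sets, with a signal of about 76 or more) were fitted with limma 3.58.1 in R 4.3.3 (lmFit, eBayes with trend), two-sided, with Benjamini-Hochberg adjustment over all 11313 and a threshold of 0.05. The fit was checked on simulated data. Only 3 arrays per group limit the precision, and p-values cover the spread between pools of 2 animals.

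Gene symbols came from the platform annotation, where 20393 probe sets have 1 symbol, 691 have several and 1606 are not listed. A gene is represented by its brightest probe set, except that all probe sets of the 6 genes are given. The members, the gene lists and the markers were chosen with earlier results of these data known. Named are, in each list, up to 4 genes above the filter with the smallest unadjusted p, and the nearest 5 genes to Sult1c2 and 2 to each other member. Exceptions are said where they stand. Pools of the same number in both groups had correlations of their deviations of -0.103, 0.162 and 0.0533, so that the numbers were not taken as pairs. The alternatives were the array scaling, the pseudocount, the filter, the variance model, a block and leaving out each array. The promoter sequences are from RefSeq for GRCm38.p6. Since the table names no genome build, no coordinates were taken for probe sets.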

Additional observations from a re-analysis of the deposited data

How the results depend on the processing

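The count of probe sets past the limma threshold was 1 and depended on the processing. It was 78 with the signals as deposited, of which 51 were higher and 27 lower with UDCA. It was 0 of 22626 with no filter (2313 at an unadjusted p under 0.05), 0 of 5657 in the upper 25% (785) and 0 with the pool number as a replicate block (1493). Leaving out 1 array gave 0 to 36, with 36 without control pool 5+6, 4 without UDCA pool 5+6 and 0 (762 to 1167 unadjusted) without any of the other 4 arrays. Of the control pools only 3+4 correlated best with the UDCA pool of its own number (0.162), while 1+2 did so with UDCA pool 3+4 (0.0858) and 5+6 with UDCA pool 1+2 (0.146). The 2175 probe sets with separate groups became 871 as deposited, 3483 with no filter and 1129 in the upper 25%, and 2762 to 4384 on leaving out 1 array, highest without control pool 5+6, where fewer arrays have to be separated. Of the genes in the sulfation lists 0 passed under each of the 15 alternatives. Of 110 values of the 10 member probe sets under alternatives, 109 moved by less than the SD between pools. The exception was the dim Papss2 probe set 1421988_at, at -0.61 against -0.19 with a pseudocount of 1. For the block and for leaving out 1 array this outcome was all but fixed in advance. The block leaves the differences as they are. Without 1 of 3 pools a group mean cannot shift by that SD, apart from the renewed normalization. Only the scalings and pseudocounts could have given another outcome. Without control pool 5+6, 5 member probe sets were separate as lower and 2 as higher, where 18.3% and 20.5% of all probe sets were. Without any of the other arrays, 2 or 3 were separate as lower (10.6% to 17.2% of all) and 0 or 1 as higher (13.8% to 19.1%). Sult1c2 is left out by the upper 25%.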
